A study of Mus musculus with 8 samples.

Results

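Alveolar macrophages are the resident phagocytes of the lung's airspaces. The effect of MSDC on them was examined here while they were stimulated with Poly(I:C), a synthetic double-stranded RNA that stands in for viral RNA. The comparison uses 4 of the 8 bulk RNA-seq libraries of the study, 2 that received MSDC before Poly(I:C) and 2 that received the solvent DMSO (vehicle) before Poly(I:C), and its members are all 11621 genes with enough counts to be tested out of 15521 in the table. The cells had been washed from mouse lungs, held for 2 h to adhere, and kept in medium with GM-CSF at 10 ng/ml, the growth factor that maintains this cell type. All 4 groups received DMSO or 10 µM MSDC for 2 h. Poly(I:C) at 5 µg/mL followed in 2 groups, for 24 h by the sample labels and overnight by the series text, and the other two groups, vehicle alone and MSDC alone, were left resting. The labels write MSDC without a number, which is a prefix shared by code-named compounds that act on the mitochondrial pyruvate carrier, but nothing here tells which of them was used. Strain, age and sex of the mice are likewise not given. The labels do not say whether the 2 libraries of a group came from separate animals or cultures, so p-values measure the spread between these libraries, which may be technical.

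The mitochondrial pyruvate carrier is a small inner-membrane complex that lets pyruvate, the end product of glycolysis, into the mitochondrion, where it feeds the TCA cycle. Alveolar macrophages live in surfactant lipid and rely on the nuclear receptor PPARγ, which pairs with RXR on DNA and switches on genes for the uptake, storage and burning of fatty acids. Double-stranded RNA is sensed by TLR3 in endosomes and by RIG-I-like receptors in the cytosol, which leads to type I interferon, to interferon-stimulated genes and, through NF-kB, to cytokines and chemokines.

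Each of the 8 libraries held 28762425 to 29493223 counts, and a floor of 3 counts lies between 0.102 and 0.104 CPM, the unit of level used below, in which counts are scaled to the library's total. Markers of the labelled cell type were present in every stimulated library: the summed level of 14 alveolar macrophage markers was 13248 and 12971 CPM with vehicle and 13649 and 14070 CPM with MSDC. The sum hides opposed shifts, as 9 of the 14 were higher and 4 lower with MSDC by the test described below. The marker lists of other cells were low but did not all stay level. The 14 monocyte or interstitial macrophage markers summed to 575 and 571 CPM with vehicle and to 360 and 344 CPM with MSDC, with Cx3cr1 at 0 in all 4 libraries. Most of that sum was Csf1r, which alveolar macrophages also express, at 422 and 418 CPM with vehicle and 225 and 218 CPM with MSDC (log2 fold change -0.92, SE 0.07). Neutrophil markers (7 of 12 in the table, Camp at 0) summed to 47.7 and 45.2 CPM with vehicle and to 24.5 and 14.2 CPM with MSDC, and T and NK cell markers (8 of 14, Cd3d and Nkg7 at 0) to 59.9 and 60.0 and to 32.8 and 30.1 CPM. Dendritic cell markers (9 of 10, Flt3 at 0) summed to 25.1 and 24.7 CPM and to 18.1 and 18.3 CPM, and B cell markers (7 of 10, Ms4a1 at 0) to 167 and 165 CPM and to 150.1 and 137 CPM. Endothelial or stromal markers (12 of 13, Col3a1 and Lum at 0) summed to 135 and 120.3 CPM with vehicle and to 112 and 105 CPM with MSDC. In several of these lists 1 gene made most of the sum: Mmp8 in the neutrophil list, Il7r in the T and NK list (log2 fold change -0.93, SE 0.08), Cd22 in the B cell list (166 and 164 CPM with vehicle and 149.9 and 137 CPM with MSDC) and Vwf in the endothelial or stromal list (129 and 114 CPM with vehicle and 108 and 102 CPM with MSDC). Eosinophil or mast cell and red blood cell markers were at or near 0. The part of these other cells in the results below was not tested. In bulk RNA, fewer cells of a type and less RNA per cell cannot be told apart.

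Under Poly(I:C), 1450 genes were higher and 1586 were lower with MSDC than with vehicle, 26.1% of the 11621 tested (12.5% higher and 13.6% lower). A gene was called changed at a Benjamini-Hochberg adjusted p under 0.05 in edgeR's quasi-likelihood test, fitted to all 8 libraries. SE below is a standard error of a log2 fold change worked back from that test. It is the absolute log2 fold change divided by the square root of the test's F statistic. Most called changes were small, with a median size of 0.47 on the log2 scale among the higher and 0.53 among the lower genes. At least 2-fold changes were found for 279 higher and 399 lower genes (2.4 and 3.43% of those tested), and at least 8-fold changes for 43 and 33. The median over all tested genes was -0.0024 on the log2 scale, beside which the medians of gene lists below can be set. The 2 groups did not overlap for 62% of all tested genes, so that a lack of overlap between 2 and 2 libraries says little for any single gene. Among the called genes it held for 1450 of 1450 higher and 1585 of 1586 lower genes, so it adds nothing to a call.

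**Figure D1:**
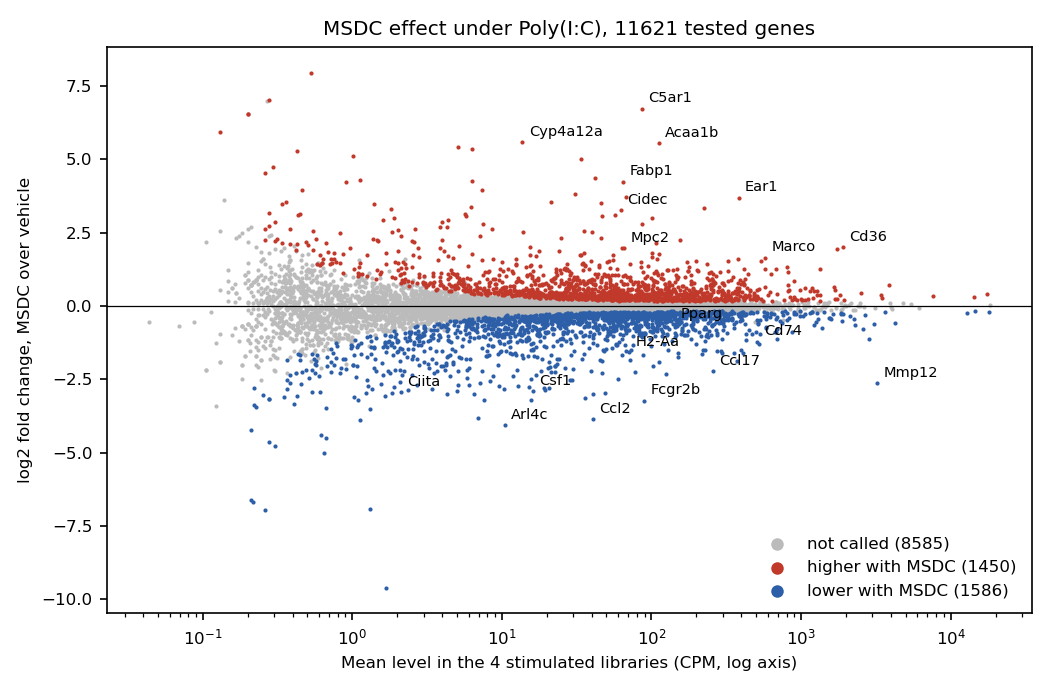
Log2 fold change of each tested gene (MSDC over vehicle, both with Poly(I:C)) against its mean level in the 4 stimulated libraries in CPM on a log axis. Grey points did not pass the test, and red and blue points mark the 1450 higher and 1586 lower genes. C5ar1, Cyp4a12a and Acaa1b stand at the top and Arl4c and Ccl2 at the bottom among the labelled genes.

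The largest rises were in a receptor, in enzymes of fatty acid metabolism and in genes of membrane lipid. C5ar1, the receptor for the complement fragment C5a, was at 0.9005 and 2.32 CPM with vehicle and 168 and 176 CPM with MSDC. Both MSDC libraries were far above both vehicle libraries (log2 fold change 6.74, SE 0.17), and the fold rests on low vehicle counts: without the second vehicle library, which holds the higher of the 2 values, it was 7.57. C5ar2, the second C5a receptor, rose with it, from 1.32 and 0.985 CPM to 9.29 and 11.04 CPM (log2 fold change 3.14, SE 0.19). Acaa1b, the last enzyme of peroxisomal fatty acid oxidation, was at 4.95 and 4.399 CPM with vehicle and 209.9 and 229.5 CPM with MSDC (log2 fold change 5.55, SE 0.10), and reads of its near copy Acaa1a may be split between the pair. Cyp4a12a, which hydroxylates fatty acids at their far end, went from 0.416 and 0.704 CPM to 27.2 and 26.6 CPM (log2 fold change 5.58, SE 0.19). Its near copy Cyp4a12b moved with it (log2 fold change 5.36, SE 0.28), so the split between these copies is uncertain, and Cyp4a12b was at 6.42 without the first and at 4.77 without the second vehicle library. Pitpnm2, a membrane-associated phosphatidylinositol transfer protein, was at 1.84 and 2.22 CPM with vehicle and 66.8 and 64.9 CPM with MSDC (log2 fold change 5.02, SE 0.13). Gpd1, which makes the glycerol backbone of triglycerides, was at 4.12 and 3.66 CPM with vehicle and 81.7 and 78.3 CPM with MSDC (log2 fold change 4.36, SE 0.09). Lad1, an anchoring filament protein, and Epor, the erythropoietin receptor, followed at log2 fold changes of 5.43 and 3.97, and Lad1 was at 6.12 without the second vehicle library. In these genes no vehicle library reached the level of any MSDC library, which was a condition for choosing the largest rises.

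The largest falls were in genes of varied roles, with Ccl2 and Fcgr2b, described further on, among them. Arl4c, a small GTPase of the plasma membrane, was at 21.96 and 17.5 CPM with vehicle and 1.39 and 0.978 CPM with MSDC (log2 fold change -4.05, SE 0.18). Rnase2a, a secreted ribonuclease of the eosinophil-associated family, was at 13.6 and 12.2 CPM with vehicle and 1.01 and 0.803 CPM with MSDC (log2 fold change -3.83, SE 0.20). Tyro3, a receptor tyrosine kinase that binds dying cells, was at 13.7 and 13.7 CPM with vehicle and 1.46 and 1.502 CPM with MSDC (log2 fold change -3.2, SE 0.18). All MSDC values of these genes lay under the lowest vehicle value, which was a condition for choosing the largest falls. Tent5c, a poly(A) polymerase, Qpct, which caps proteins with pyroglutamate, and the transcript AA467197 had log2 fold changes of -3.14, -2.97 and -2.99. Slfn1 and Ifi213, both interferon-inducible, were at 68.7 and 76.6 and at 7.38 and 7.85 CPM with vehicle and at 9.26 and 9.12 and 1.08 and 0.803 CPM with MSDC (-2.98 and -3.01). Ifi213 belongs to a cluster of near-identical Ifi200 genes, and its count may include reads of its neighbours.

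Target genes of the PPAR receptors rose almost throughout. Of 21 listed, 18 were tested, 17 were higher and 0 lower, and 11 of the 17 rose at least 2-fold. The list's median log2 fold change was 1.36, against -0.0024 over all tested genes. Cd36, which takes up fatty acids and oxidised lipoprotein, was at 747 and 785 CPM with vehicle and 2996 and 3131 CPM with MSDC (log2 fold change 2.0, SE 0.06). Fabp4 and Fabp1, carriers of fatty acids in the cytosol, were at 192 and 185 and at 7.65 and 5.28 CPM with vehicle, and at 546 and 605 and 108 and 138 CPM with MSDC (1.61 and 4.25). Angptl4, a secreted inhibitor of lipoprotein lipase, was at 22.5 and 22.4 CPM with vehicle and 182 and 178 CPM with MSDC (log2 fold change 3.0, SE 0.08). In each of these the lowest MSDC value was above the highest vehicle value. Lpl, lipoprotein lipase itself, and Cpt1a, the gate of fatty acids into mitochondria, rose less, by 0.71 (SE 0.06) and 0.71 (SE 0.06) on the log2 scale. Acadm, a medium-chain dehydrogenase, was the member that did not pass, at 28.9 and 29.4 CPM with vehicle and 34.2 and 34.1 CPM with MSDC (log2 fold change 0.23, SE 0.08, edgeR adjusted p = 0.06), and it passed without either resting vehicle library (adjusted p = 0.027 and 0.028, edgeR) and in the 4 stimulated libraries alone (0.037).

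Pparg and Rxra themselves did not rise. Pparg was at 171 and 175 CPM with vehicle and 110.3 and 115 CPM with MSDC, so that both MSDC values were under both vehicle values (log2 fold change -0.62, SE 0.06). Rxra, its partner, was at 337 and 349 CPM with vehicle and 272 and 266 CPM with MSDC (log2 fold change -0.35, SE 0.06), and Ppargc1b, a coactivator, fell by 0.46 (SE 0.10) on the log2 scale. Ncor1, a corepressor, rose by 0.44 (SE 0.07). Of the 10 tested receptors and coregulators, 2 were higher and 4 lower. Ppara had no count in the 4 stimulated libraries, and Rxrg had none in any library.

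Promoters of the PPAR targets were searched for a direct repeat, the class of site that PPAR and RXR are known to bind. The letters AGGNCA, followed after 1 base of any kind by AGGNCA again, were sought on both strands in the 250 bases before each RefSeq gene start (build GRCm38.p6). Of the 18 tested targets, 13 had a promoter in the table and 1, Fabp1, held a match, against 0.338% of all 32851 promoters. Here and in the searches below a listed gene counts if any of its promoters matches, whereas the share of all is per promoter. The measures are thus unlike. The bases before the Fabp1 start (chr6:71199759-71199878, plus strand) are shown because Fabp1 rose among the most of the list and holds the match, in capitals on the opposite strand:
Fabp1: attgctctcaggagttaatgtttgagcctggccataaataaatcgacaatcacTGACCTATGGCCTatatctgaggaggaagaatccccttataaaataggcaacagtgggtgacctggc
The match starts 67 bases before the gene start. It describes these letters only and says nothing of binding in these cells.

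Genes of fat storage, turnover and oxidation were mostly higher with MSDC. Of 20 tested genes of lipid droplets and triglyceride turnover 13 were higher and 1 was lower (median 0.69), and of 23 genes of fatty acid oxidation and ketone metabolism 17 were higher and 2 lower (median 0.59). The few lower genes depended on single libraries: without either MSDC library or the first vehicle library given Poly(I:C) the droplet list had 0, and without the second vehicle or the first MSDC library the oxidation list had 1. Plin2, the main droplet coat protein of these cells, was at 711 and 709.8 CPM with vehicle and 2706 and 2833 CPM with MSDC (log2 fold change 1.96, SE 0.06). Cidec, which fuses small droplets into large ones, was at 11.5 and 12.1 CPM with vehicle and 114 and 114 CPM with MSDC (log2 fold change 3.27, SE 0.08). Dgat1, which makes triglyceride, and Pnpla2, which breaks it down, rose in the same cells. Dgat1 was at 14.3 and 16.2 CPM with vehicle and 75.02 and 77.8 CPM with MSDC (log2 fold change 2.33, SE 0.08) and Pnpla2 at 154 and 158 CPM with vehicle and 346 and 351 CPM with MSDC (log2 fold change 1.16, SE 0.06), with no overlap between the groups in either. Plin3, another coat protein, and Gk, glycerol kinase, did not pass (0.09 and 0.17, edgeR adjusted p = 0.35 and 0.17).

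Among the mitochondrial oxidation genes, Acaa2, which performs the final thiolysis, was at 54.1 and 53.4 CPM with vehicle and 117 and 126 CPM with MSDC (log2 fold change 1.17, SE 0.08). Hadha and Hadhb, the trifunctional protein, rose by 0.87 (SE 0.06) and 0.77 (SE 0.07), and Acadvl, the very-long-chain dehydrogenase, by 0.94 (SE 0.08). Oxct1, which lets a cell use ketone bodies, went the other way, from 279.9 and 286 CPM to 160.2 and 169 CPM (log2 fold change -0.78, SE 0.06).

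Peroxisomes oxidise the long fatty acids that mitochondria cannot. Of 33 tested peroxisome genes 17 were higher and 1 was lower, with a median of 0.25. Pex11a, which drives peroxisomes to divide, was at 10.3 and 13.2 CPM with vehicle and 65.8 and 69.9 CPM with MSDC (log2 fold change 2.53, SE 0.10). Hsd17b4, an enzyme of peroxisomal oxidation, was at 163 and 167 CPM with vehicle and 442 and 519.9 CPM with MSDC (log2 fold change 1.54, SE 0.07). Abcd2, an importer of long-chain fatty acids, rose by 1.16 (SE 0.06), while Pex19, which inserts peroxisomal membrane proteins, did not pass (0.13, edgeR adjusted p = 0.27).

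**Figure D2:**
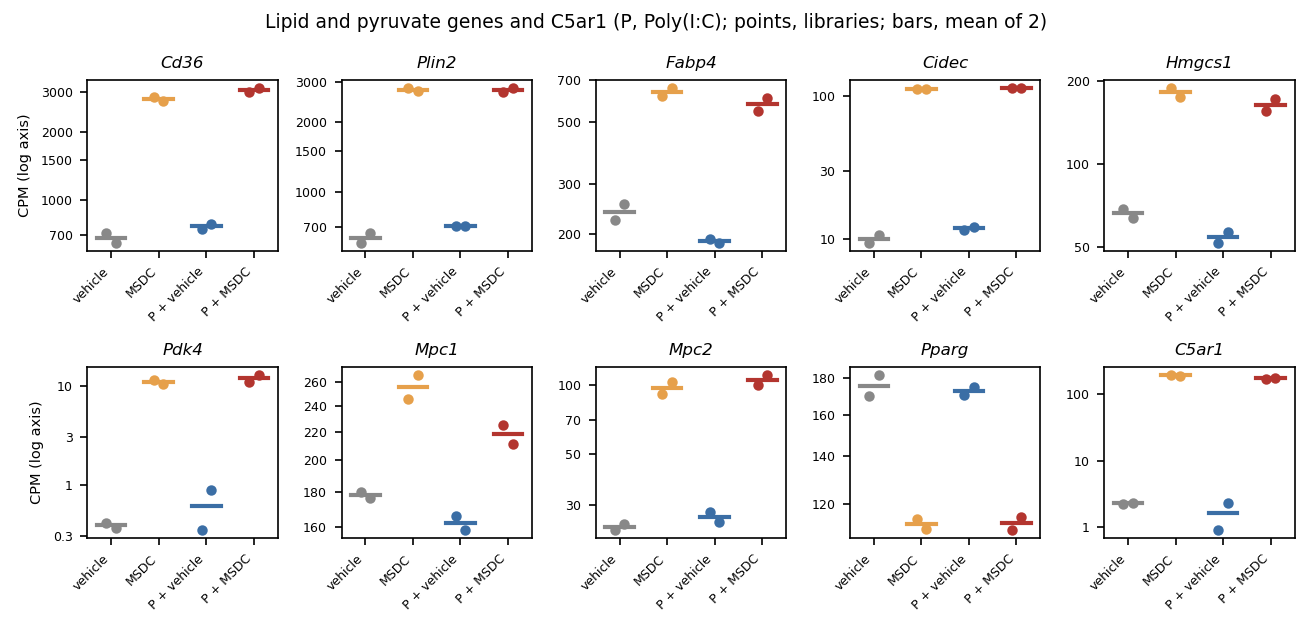
Level in CPM on a log axis of 10 genes (lipid and pyruvate handling and the C5a receptor) in all 8 libraries, by group (vehicle, MSDC, Poly(I:C) with vehicle, Poly(I:C) with MSDC). Each point is 1 library and each bar the mean of 2. The MSDC libraries stand above the vehicle libraries for every gene but Pparg, which is lower with MSDC.

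Both subunits of the carrier rose. Mpc1 was at 166 and 158 CPM with vehicle and 225 and 211 CPM with MSDC (log2 fold change 0.43, SE 0.07), and Mpc2 at 28.1 and 25.4 CPM with vehicle and 99.2 and 110.2 CPM with MSDC (log2 fold change 1.97, SE 0.09). Per length, in the deposited TPM, which scale each gene by its length, the mean level of Mpc1 was 356 with vehicle and 489.9 with MSDC, and that of Mpc2 was 63.2 and 253. On these means the subunits stood closer together with MSDC. Pdk4, a kinase that switches off pyruvate dehydrogenase, was at 0.346 and 0.8798 CPM with vehicle and 10.99 and 12.9 CPM with MSDC (log2 fold change 4.28, SE 0.25), a rise from near 0 that reached 5.09 without the second vehicle library.

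Of 22 tested genes of pyruvate handling, 12 were higher and 1 was lower (median 0.30). Pcx, which turns pyruvate into oxaloacetate, was at 19.1 and 19.6 CPM with vehicle and 33.3 and 34.8 CPM with MSDC (log2 fold change 0.82, SE 0.09). Ldha, which makes lactate from pyruvate, was at 655 and 699 CPM with vehicle and 933 and 984 CPM with MSDC (log2 fold change 0.50, SE 0.06). Me1 and Me2, the malic enzymes that form pyruvate from malate, rose by 1.68 (SE 0.24) and 0.52 (SE 0.07). Pdhb, a subunit of pyruvate dehydrogenase, did not pass (log2 fold change 0.10, SE 0.07, edgeR adjusted p = 0.38).

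Few genes of the central energy pathways passed the test. Of 18 tested TCA cycle genes 2 were higher and 2 lower, and of 38 genes of the respiratory chain and ATP synthase 2 were higher and 5 lower. These are shares below the 26.1% called over all genes, and they rest on single libraries: without 1 stimulated or 1 resting MSDC library the 2 lower TCA genes came to 0 or 1, the 5 lower respiratory genes to 0 to 2 and the 2 higher ones to 0 or 1. Cs, citrate synthase, was at 343 and 345 CPM with vehicle and 351 and 359 CPM with MSDC (log2 fold change 0.04, SE 0.06), and Mdh2, which regenerates oxaloacetate, at 249.7 and 249.6 CPM with vehicle and 276 and 263 CPM with MSDC (log2 fold change 0.11, SE 0.06). Ucp2, an inner-membrane carrier, was at 1319 and 1390.1 CPM with vehicle and 1309.7 and 1187 CPM with MSDC (log2 fold change -0.12, SE 0.06). None of these 3 passed (edgeR adjusted p = 0.64, 0.2 and 0.16). Of 28 glycolysis and HIF-1 target genes 7 were higher and 5 lower, and the 7 became 3 without the first vehicle or without the second MSDC library given Poly(I:C). Slc2a1, the main glucose transporter of these cells, was at 115 and 113 CPM with vehicle and 67.2 and 83.3 CPM with MSDC (log2 fold change -0.60, SE 0.09), while Gapdh, a central enzyme of the pathway, was at 4394 and 4784 CPM with vehicle and 5061 and 4853 CPM with MSDC and did not pass (log2 fold change 0.11, SE 0.06, edgeR adjusted p = 0.17).

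Genes of cholesterol synthesis rose along most of the pathway. Of 25 tested genes 20 were higher and 0 lower, with a median log2 fold change of 0.74. Hmgcs1, which commits acetyl groups to the pathway, was at 52.02 and 56.7 CPM with vehicle and 156 and 173 CPM with MSDC (log2 fold change 1.59, SE 0.08). Cyp51, Sc5d and Fdft1, which act further along, rose by 1.02 (SE 0.07), 1.05 (SE 0.09) and 0.88 (SE 0.08). Insig1, which holds the sterol sensor in the endoplasmic reticulum when sterol is plentiful, was at 79.4 and 78.6 CPM with vehicle and 151 and 153 CPM with MSDC (log2 fold change 0.95, SE 0.07). The MSDC libraries were the higher ones for all of these. Mvd, an enzyme of the mevalonate branch, did not pass (log2 fold change -0.09, SE 0.07, edgeR adjusted p = 0.38).

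The sterol element TCACNCCAC, the kind of site that SREBP factors read, was searched on both strands of the same windows. Of the 18 cholesterol genes that had a promoter there, 1, Hmgcs1, held it, against 1.05% of all promoters. The bases before its start (chr13:119690204-119690350, plus strand, GRCm38.p6) are shown because Hmgcs1 rose the most of the list, with the match in capitals, 137 bases before the start:
Hmgcs1: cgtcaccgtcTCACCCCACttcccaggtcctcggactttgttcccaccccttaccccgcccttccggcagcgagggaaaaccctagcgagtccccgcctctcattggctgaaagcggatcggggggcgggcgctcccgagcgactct
The absence of these letters from the other windows says only that they are not in those windows.

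Genes read by LXR, the sterol receptor, split. Of 13 tested 5 were higher and 1 was lower. Abca1, which exports cholesterol to apolipoprotein, was at 204 and 179 CPM with vehicle and 62.9 and 71.8 CPM with MSDC, with both MSDC values far under both vehicle values (log2 fold change -1.51, SE 0.14). Abcg1, a second sterol exporter and a marker of alveolar macrophages, rose slightly, from 1585 and 1589 CPM to 2015 and 2116 CPM (log2 fold change 0.38, SE 0.05). Pltp, which transfers phospholipid between lipoproteins, was at 21.2 and 22.1 CPM with vehicle and 152 and 152 CPM with MSDC (log2 fold change 2.81, SE 0.07), and Lpcat3, which remodels phospholipids, rose by 0.96 (SE 0.07). Of 15 tested genes of fatty acid synthesis and desaturation 7 were higher and 1 was lower. Fads2, a desaturase of polyunsaturated fatty acids, was at 1.52 and 2.53 CPM with vehicle and 7.86 and 8.87 CPM with MSDC (log2 fold change 2.04, SE 0.21), and Fasn, fatty acid synthase, at 315 and 295 CPM with vehicle and 439 and 503 CPM with MSDC (log2 fold change 0.63, SE 0.09). Elovl6, which lengthens saturated fatty acids, was the member that fell, from 21.6 and 23.8 CPM to 9.19 and 9.81 CPM (log2 fold change -1.25, SE 0.11).

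Transcripts of antigen presentation genes fell, most of all those of MHC class II. Class II proteins show peptides from engulfed material to T cells. Of 11 tested class II genes 10 were lower and 0 higher, with a median of -1.39, in a comparison in which 13.6% of all genes were lower. H2-Aa and H2-Ab1, the chains of the I-A molecule, were at 101 and 112 and at 103 and 96.8 CPM with vehicle and at 33.9 and 37.6 and 37.6 and 31.8 CPM with MSDC (-1.57 and -1.53). Cd74, the invariant chain that guards the groove, was at 719 and 711 CPM with vehicle and 304 and 312 CPM with MSDC (log2 fold change -1.21, SE 0.06). H2-DMa, which helps load the peptide, was at 218 and 234 CPM with vehicle and 79.4 and 69.1 CPM with MSDC (log2 fold change -1.61, SE 0.08). The groups did not overlap in any of these. Ciita, the master activator of class II transcription, was at 3.08 and 4.43 CPM with vehicle and 0.313 and 0.664 CPM with MSDC (log2 fold change -2.93, SE 0.36), low counts, and the value was -3.56 without the second MSDC library. H2-Oa did not pass (log2 fold change -0.29, SE 0.44). Dendritic and B cells also make class II proteins. Their summed markers are given above, and Flt3 of dendritic cells and Ms4a1 of B cells were at 0 in all 4 stimulated libraries. Of 2 tested B cell markers 2 were lower (median log2 fold change -1.56). Cd22, which made most of the summed level, had a log2 fold change of only -0.20, so that median rests on the other marker, of low level. Of 5 tested dendritic cell markers 2 were lower and 0 higher. The part of these cells in the fall of class II genes was not tested.

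Class II promoters carry a Y box, the site of the factor NF-Y, as part of the module through which Ciita acts. The letters TGATTGG, sought on both strands, were found in 5 of the 8 tested class II genes with a promoter in the table (H2-Aa, H2-DMb1, H2-DMb2, H2-Eb1 and H2-Oa), against 7.23% of all promoters. Of the 5, 4 fell and H2-Oa did not pass the test. The bases before the starts of 3 members that fell are shown to let the shared letters be seen, in capitals. H2-Aa lies at chr17:34287824-34287943 (minus strand), H2-Eb1 at chr17:34305747-34305866 (plus strand) and H2-DMb1 at chr17:34153071-34153190 (plus strand), in GRCm38.p6:
H2-Aa: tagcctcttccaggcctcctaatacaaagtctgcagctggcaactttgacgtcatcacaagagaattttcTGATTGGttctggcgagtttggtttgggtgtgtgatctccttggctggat
H2-Eb1: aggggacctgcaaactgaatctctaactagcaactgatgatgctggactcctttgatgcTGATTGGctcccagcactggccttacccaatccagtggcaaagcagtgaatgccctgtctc
H2-DMb1: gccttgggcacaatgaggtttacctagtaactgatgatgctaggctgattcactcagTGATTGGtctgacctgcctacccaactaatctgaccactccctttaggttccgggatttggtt
The capitals start 50, 61 and 63 bases before the gene starts. H2-Eb1 was at 25.5 and 23.4 CPM with vehicle and 9.88 and 8.802 CPM with MSDC (log2 fold change -1.39, SE 0.11) and H2-DMb1 at 113 and 106 CPM with vehicle and 57.4 and 55.01 CPM with MSDC (log2 fold change -0.96, SE 0.07).

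Genes of class I presentation, which all nucleated cells use for peptides made inside the cell, fell by less. Of 19 tested genes 13 were lower and 0 higher (median -0.48). B2m, the shared light chain, was at 3678 and 3828 CPM with vehicle and 2559 and 2315 CPM with MSDC (log2 fold change -0.62, SE 0.07). Tap1, which pumps peptides into the endoplasmic reticulum, was at 194 and 208 CPM with vehicle and 125 and 129.9 CPM with MSDC (log2 fold change -0.66, SE 0.07). Nlrc5, the class I counterpart of Ciita, was at 69.7 and 73.8 CPM with vehicle and 37.4 and 42.9 CPM with MSDC (log2 fold change -0.84, SE 0.11). H2-K1, a classical heavy chain, was at 784 and 774 CPM with vehicle and 595 and 608 CPM with MSDC (log2 fold change -0.37, SE 0.05). All these MSDC values lay under the vehicle values, whereas those of Psme2, a proteasome activator subunit, differed by a log2 fold change of -0.11 that did not pass (edgeR adjusted p = 0.25).

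Genes of the signals that accompany antigen fell too. Of 13 tested costimulation and checkpoint genes 9 were lower and 0 higher (median -0.98). Cd86 and Cd80, the ligands of CD28, were at 6.303 and 7.29 and at 15.1 and 16.4 CPM with vehicle and at 1.77 and 2.51 and 5.05 and 5.87 CPM with MSDC (-1.66 and -1.53). Vsir, an inhibitory ligand of T cells, was at 109.5 and 112 CPM with vehicle and 55.9 and 56.5 CPM with MSDC (log2 fold change -0.98, SE 0.07), and Cd200r1, an inhibitory receptor, at 90.4 and 81.6 CPM with vehicle and 44.6 and 42.1 CPM with MSDC (log2 fold change -0.99, SE 0.08). Activating and inhibitory members thus both fell. Sirpa, the receptor of the CD47 signal, did not pass (log2 fold change -0.11, SE 0.05, edgeR adjusted p = 0.14).

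The interferon-stimulated genes were lower with MSDC or did not pass the test. Some that did not pass had larger falls than some that passed. Of 50 tested 28 were lower and 0 higher, with a median of -0.37, and DESeq2 called 18 lower. Ifitm3, which blocks virus entry, was at 123 and 132 CPM with vehicle and 24.6 and 29.7 CPM with MSDC (log2 fold change -2.23, SE 0.20, edgeR adjusted p = 3.0e-07). DESeq2 did not call it (adjusted p = 0.33). Irf7, the interferon-driven factor that amplifies interferon itself, was at 943 and 939 CPM with vehicle and 407 and 456 CPM with MSDC (log2 fold change -1.12, SE 0.20), and DESeq2 did not call it either (adjusted p = 0.2). Ifi204, a DNA sensor of the Ifi200 cluster, was at 302 and 317 CPM with vehicle and 155 and 148 CPM with MSDC (log2 fold change -1.03, SE 0.10), and Gbp7, a guanylate-binding protein, at 121 and 123 CPM with vehicle and 97.1 and 96.8 CPM with MSDC (log2 fold change -0.33, SE 0.06). Ms4a4c, a membrane protein of unclear role, was at 8.42 and 9.12 CPM with vehicle and 1.15 and 1.54 CPM with MSDC (log2 fold change -2.7, SE 0.26).

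Other members of the same list passed narrowly or did not pass. Ifit1 and Rsad2, inhibitors of viral translation and replication, were at 82.9 and 106 and at 105 and 127 CPM with vehicle and at 108 and 99.2 and 120.3 and 121 CPM with MSDC (0.13 and 0.05, edgeR adjusted p = 0.57 and 0.79). Their groups overlap. Isg15, a ubiquitin-like modifier, was at 123 and 122 CPM with vehicle and 82.5 and 105 CPM with MSDC and passed narrowly (log2 fold change -0.38, SE 0.13, edgeR adjusted p = 0.035). It did not pass in DESeq2 (adjusted p = 0.64) or, in edgeR, without either stimulated vehicle library (0.12 and 0.10) or the first MSDC library given Poly(I:C) (0.37). Oas1a, which makes the messenger that activates RNase L, was at 321 and 327 CPM with vehicle and 265 and 285 CPM with MSDC and did not pass (log2 fold change -0.24, SE 0.11, edgeR adjusted p = 0.12), but it passed without either resting vehicle library (0.0021 for each), in the 4 stimulated libraries alone (0.005) and with no filter on low counts (0.0086). Ifnb1, which encodes interferon beta itself, had too few counts to be tested.

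The interferon element, here GAAA followed after 2 bases of any kind by GAAA again, is the core of the site through which type I interferon acts on its target genes. It was found on either strand in 20 of the 40 interferon-stimulated genes with a promoter in the table, counted by gene, against 2.98% of all promoters, counted singly. Oas1a is shown because it holds a match and did not pass the test. The window lies at chr5:120907526-120907645 (minus strand, GRCm38.p6), with the match in capitals, 20 bases before the start:
Oas1a: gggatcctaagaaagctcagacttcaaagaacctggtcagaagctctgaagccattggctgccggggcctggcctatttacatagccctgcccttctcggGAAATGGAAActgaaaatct

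Sensors of microbial products were mostly lower. Of 29 tested pattern recognition receptors and their adaptors 18 were lower and 4 higher (median -0.45). Tlr3, the endosomal sensor of double-stranded RNA, was at 34.4 and 39.8 CPM with vehicle and 26.9 and 27.6 CPM with MSDC (log2 fold change -0.45, SE 0.11), and it did not pass without the second vehicle (edgeR adjusted p = 0.085) or the first MSDC library given Poly(I:C) (0.063). Clec7a, the receptor of fungal glucan, was at 3969 and 3837 CPM with vehicle and 1781 and 1806 CPM with MSDC (log2 fold change -1.12, SE 0.05), and Clec4n, which binds fungal mannan, at 445 and 415 CPM with vehicle and 147 and 151 CPM with MSDC (log2 fold change -1.53, SE 0.06). Tlr2, which detects bacterial lipoprotein, was at 362 and 368 CPM with vehicle and 188 and 182 CPM with MSDC (log2 fold change -0.98, SE 0.07), and Tmem173, the STING adaptor of DNA sensing, at 124 and 127 CPM with vehicle and 65.2 and 75.8 CPM with MSDC (log2 fold change -0.84, SE 0.07). Both MSDC values lay under both vehicle values in each. Tlr5, the flagellin receptor, was among the few that rose, from 1.21 and 1.58 CPM to 6.51 and 6.71 CPM (log2 fold change 2.24, SE 0.21). Myd88, the adaptor of most Toll-like receptors, and Cgas, the cytosolic DNA sensor, did not pass (0.07 and 0.06, edgeR adjusted p = 0.54 and 0.61).

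Chemokines of the CC group, which call monocytes, T cells and other leukocytes, mostly fell. Of 10 tested 8 were lower and 1 was higher (median -1.56). The 8 became 5 without the first vehicle or the second MSDC library given Poly(I:C), when Ccl6, Ccl7 and Ccl22 were no longer called (log2 fold changes -0.16, -1.63 and -0.92 with all libraries). Ccl6 and Ccl7 did not pass in DESeq2 either (adjusted p = 0.053 and 0.17), nor without any 1 of the 4 stimulated or of the resting MSDC libraries. With the replicate number as a block they did not pass in edgeR (adjusted p = 0.057 and 0.061). Ccl7 did not pass in edgeR with no filter on low counts (0.15). In limma on log2(FPKM + 1) Ccl6 did not pass (adjusted p = 0.34) and Ccl7 did (4.9e-04). Ccl2, the main attractant of monocytes, was at 16.7 and 14.2 CPM in resting vehicle cells, at 76.7 and 75.9 CPM with Poly(I:C) and at 5.29 and 5.204 CPM with Poly(I:C) and MSDC (log2 fold change -3.86, SE 0.16). The level under Poly(I:C) and MSDC was thus also under that of resting vehicle cells. Ccl17, which draws CCR4-bearing T cells, was at 451 and 402 CPM with vehicle and 99.1 and 84.5 CPM with MSDC (log2 fold change -2.22, SE 0.09). Ccl3 and Ccl4, the macrophage inflammatory proteins, were at 421 and 468 and at 30.8 and 35.1 CPM with vehicle and at 149 and 144 and 7.55 and 7.75 CPM with MSDC (-1.6 and -2.1). Ccl9 was the member that rose, from 1315 and 1278 CPM to 2146 and 1939 CPM (log2 fold change 0.66, SE 0.06).

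Of 7 tested CXC chemokines 3 were lower and 0 higher. Cxcl16, a membrane-bound chemokine that also takes up oxidised lipoprotein, was at 16.8 and 16.6 CPM with vehicle and 2.57 and 2.51 CPM with MSDC (log2 fold change -2.71, SE 0.15). Cxcl10, the interferon-induced attractant of activated T cells, was at 4.12 and 7.496 CPM with vehicle and 6.68 and 6.57 CPM with MSDC, where the 2 vehicle libraries enclose the MSDC values (log2 fold change 0.19, SE 0.30, edgeR adjusted p = 0.7). Cxcl2, a neutrophil attractant, did not pass (log2 fold change -0.43, SE 0.24, edgeR adjusted p = 0.22). Cxcl11 was not analysed here.

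Receptors for chemoattractants went both ways. Of 16 tested 8 were lower and 4 higher. The chemokine receptor Cxcr4 was at 85.6 and 83.97 CPM with vehicle and 35.8 and 37.1 CPM with MSDC (log2 fold change -1.22, SE 0.08). Cmklr1, the receptor of chemerin, was at 29.6 and 26.8 CPM with vehicle and 4.49 and 1.64 CPM with MSDC (log2 fold change -3.2, SE 0.24), and reached -4.1 without the first MSDC library, which holds the higher of the 2 MSDC values. Ptafr, the receptor of platelet-activating factor, fell from 36.6 and 37.5 CPM to 9.57 and 9.19 CPM (log2 fold change -1.98, SE 0.12). C3ar1, the receptor of the complement fragment C3a, fell as the C5a receptors rose, from 24.04 and 35.7 CPM to 5.05 and 7.89 CPM (log2 fold change -2.21, SE 0.22). Fpr1, the receptor of bacterial formyl peptides, was at 45.1 and 43.99 CPM with vehicle and 121 and 131 CPM with MSDC (log2 fold change 1.5, SE 0.09).

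**Figure D3:**
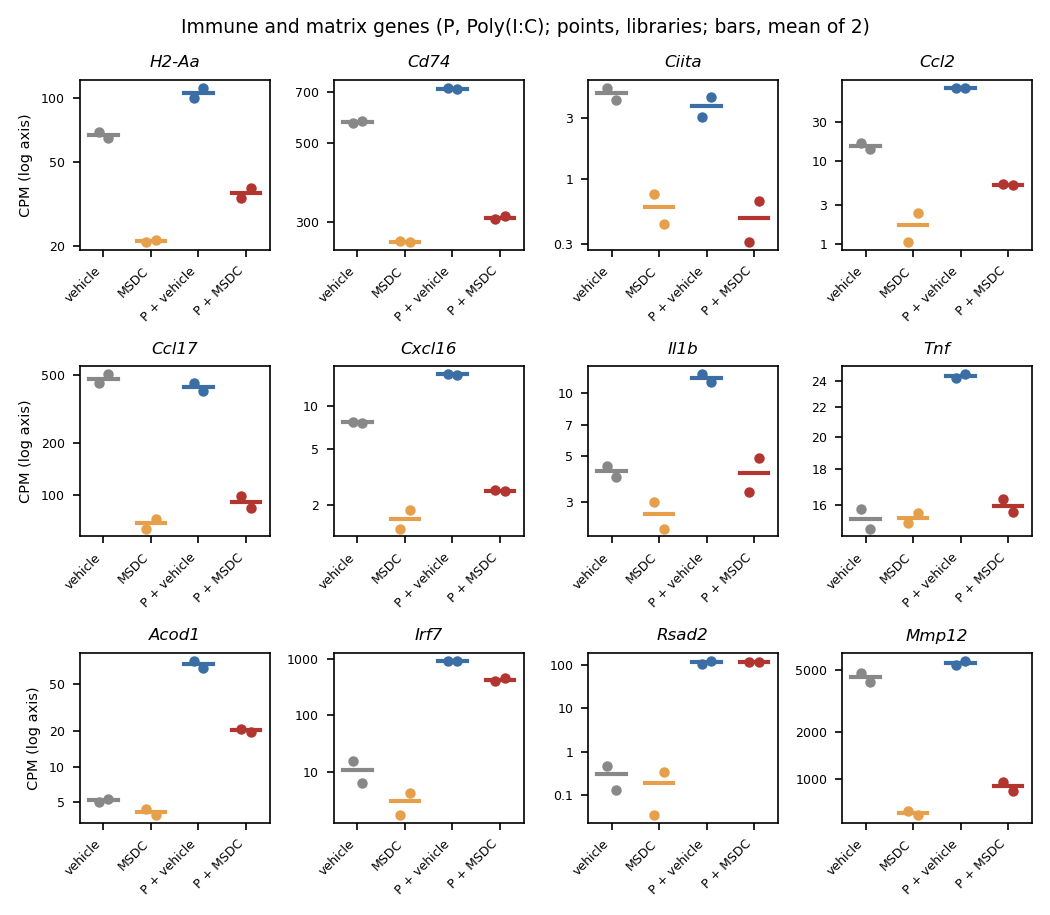
Level in CPM on a log axis of 12 genes of antigen presentation, chemokines, cytokines, interferon response and tissue remodelling in all 8 libraries, by group. Each point is 1 library and each bar the mean of 2. Ccl2 under Poly(I:C) with MSDC, at 5.29 and 5.204 CPM, lies under the resting vehicle libraries, while Rsad2 under Poly(I:C) stands at 105 and 127 CPM with vehicle and at 120.3 and 121 CPM with MSDC.

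Of 19 tested cytokines and inflammatory mediators 10 were lower and 2 higher (median -0.74), and the 2 became 1 without the first vehicle or the second MSDC library given Poly(I:C). Csf1, the growth factor of monocytes and macrophages, was at 27.7 and 29.1 CPM with vehicle and 4.63 and 2.93 CPM with MSDC (log2 fold change -2.91, SE 0.16). Hbegf, a growth factor for epithelium, was at 11.3 and 9.71 CPM with vehicle and 1.53 and 1.71 CPM with MSDC (log2 fold change -2.69, SE 0.19). Il1b, the inflammasome cytokine, was at 12.3 and 11.3 CPM with vehicle and 3.34 and 4.89 CPM with MSDC (log2 fold change -1.52, SE 0.18), while Il18, the other cytokine that the inflammasome ripens, was the opposite, at 67.7 and 67.4 CPM with vehicle and 138 and 126 CPM with MSDC (log2 fold change 0.97, SE 0.07). Tnf fell by less, from 24.2 and 24.5 CPM to 16.3 and 15.6 CPM (log2 fold change -0.61, SE 0.10), and Il1a, a related cytokine, and Il1rn, the receptor antagonist of both, did not pass (0.01 and -0.08, edgeR adjusted p = 0.91 and 0.58). Acod1, which makes itaconate in the mitochondrion, was at 79.1 and 68.4 CPM with vehicle and 20.98 and 19.6 CPM with MSDC (log2 fold change -1.86, SE 0.10). Il6 had too few counts to be tested.

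Of 20 genes of the NF-kB pathway and its feedback 10 were lower and 1 was higher, and the 1 was lost without the first vehicle or either MSDC library given Poly(I:C). Among the lower genes Ier3, an early survival gene, was at 15.5 and 13.4 CPM with vehicle and 5.29 and 4.44 CPM with MSDC (log2 fold change -1.57, SE 0.16), and Nfkbie, an inhibitor made on activation, at 25.7 and 24.2 CPM with vehicle and 10.2 and 11.5 CPM with MSDC (log2 fold change -1.2, SE 0.10). Tnfaip3, which ends the signal, and Icam1, an adhesion molecule, fell by 0.67 (SE 0.09) and 0.65 (SE 0.06) on the log2 scale. Rela, a subunit of the factor, did not pass (log2 fold change 0.04, edgeR adjusted p = 0.72). Among 15 inflammasome genes 6 were higher and 7 lower. Casp8, an initiator caspase, was at 153 and 152 CPM with vehicle and 332 and 336 CPM with MSDC (log2 fold change 1.13, SE 0.06), and Nlrc4, the sensor platform for flagellin receptors, at 16.9 and 14.2 CPM with vehicle and 28.1 and 31.8 CPM with MSDC (log2 fold change 0.94, SE 0.12). Nlrp3 and Pycard, a sensor and the adaptor, were at 31.4 and 29.9 and at 110.3 and 107 CPM with vehicle and at 18.3 and 18.3 and 68.8 and 73.6 CPM with MSDC (-0.75 and -0.61).

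Receptors for antibody changed in opposite directions. Fcgr2b, the inhibitory receptor for IgG, was at 167 and 155 CPM with vehicle and 14.5 and 19.9 CPM with MSDC (log2 fold change -3.23, SE 0.12). The activating receptor Fcgr3 and the shared signalling chain Fcer1g fell by less, by 0.95 (SE 0.06) and 0.65 (SE 0.08) on the log2 scale. Fcgr4, another activating receptor, rose from 59.2 and 63.9 CPM to 111 and 128 CPM (log2 fold change 0.96, SE 0.09), and Fcgrt, which recycles IgG, rose from 48.4 and 46.9 CPM to 90.6 and 101 CPM (log2 fold change 1.01, SE 0.09). Scavenger and efferocytosis receptors were as divided, with 7 of 18 higher and 7 lower. Marco, a scavenger receptor for particles and bacteria, was at 289.9 and 266 CPM with vehicle and 866 and 880.2 CPM with MSDC (log2 fold change 1.65, SE 0.09), and Msr1, which binds modified lipoprotein, at 203 and 187 CPM with vehicle and 94.1 and 92.6 CPM with MSDC (log2 fold change -1.06, SE 0.08).

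Genes that identify alveolar macrophages also split. Of 32 tested 15 were higher and 11 lower. Siglecf, the sorting marker of these cells, was at 332 and 336 CPM with vehicle and 300.3 and 309 CPM with MSDC and did not pass (log2 fold change -0.13, SE 0.06, edgeR adjusted p = 0.1). Ear1 and Ear2, ribonucleases typical of the cell type, were at 52.2 and 57.5 and at 504 and 496 CPM with vehicle and at 703 and 718 and 1123 and 1135 CPM with MSDC (3.7 and 1.17), and as near copies they may share reads. Krt79 and Krt19, keratins that these macrophages express, rose by 3.71 (SE 0.09) and 3.12 (SE 0.10). Chil3, a chitinase-like protein, and Itgax, the CD11c integrin, were at 5176 and 4996 and at 2608 and 2560.3 CPM with vehicle and at 3308 and 3516 and 1920.4 and 1916 CPM with MSDC (-0.58 and -0.43). The list shares Fabp1, Fabp4, Cidec and Lpl with the PPAR and droplet lists above. Epithelial markers, which include other keratins, summed to 53.6 and 55.1 CPM with vehicle and to 50.1 and 50.8 CPM with MSDC.

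Of 15 tested genes of alternative activation, the programme set off by IL-4, 9 were lower and 1 was higher (median -0.59). Irf4, a factor of that programme, was at 35.1 and 33.6 CPM with vehicle and 4.31 and 5.204 CPM with MSDC (log2 fold change -2.85, SE 0.13). Egr2 and the STAT5 feedback genes Cish and Socs2 fell by 0.98 (SE 0.06), 0.94 (SE 0.08) and 0.96 (SE 0.10) on the log2 scale. Mrc1, the mannose receptor, was the member that rose, from 1141 and 1074 CPM to 1409.8 and 1473 CPM (log2 fold change 0.38, SE 0.07).

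Enzymes that degrade matrix, with their inhibitors, had the lowest median of the lists examined, -1.66, with 10 of 14 lower and 1 higher. Mmp12, the macrophage elastase, was at 5390.0 and 5702 CPM with vehicle and 959 and 835 CPM with MSDC (log2 fold change -2.63, SE 0.08), with a mean of 5909 TPM with vehicle and 973 TPM with MSDC. Mmp14, a membrane-bound collagenase, was at 51.5 and 45.4 CPM with vehicle and 10.1 and 6.81 CPM with MSDC (log2 fold change -2.52, SE 0.15), and Plau, the urokinase activator of plasmin, at 165 and 164 CPM with vehicle and 36.2 and 44.1 CPM with MSDC (log2 fold change -2.04, SE 0.09). Hpse, which cuts heparan sulfate, was at 18.8 and 17.4 CPM with vehicle and 2.296 and 2.79 CPM with MSDC (log2 fold change -2.83, SE 0.15). Mmp8, the neutrophil collagenase and a marker in the neutrophil list, was at 38.5 and 36.7 CPM with vehicle and 14.6 and 6.64 CPM with MSDC (log2 fold change -1.82, SE 0.23), and at -2.5 without the first MSDC library. Timp2, an inhibitor of these enzymes, fell too (log2 fold change -1.5, SE 0.08).

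The Ms4a family of membrane proteins, several of which are interferon-induced in macrophages, had 5 of 8 tested members lower and 0 higher. Ms4a6c was at 98.5 and 104 CPM with vehicle and 17.1 and 19.4 CPM with MSDC (log2 fold change -2.47, SE 0.09) and Ms4a6d at 222 and 228 CPM with vehicle and 129 and 122 CPM with MSDC (log2 fold change -0.84, SE 0.07). Of 17 genes of eicosanoid synthesis 5 were higher and 5 lower, and the 5 higher came to 3 without the second MSDC library given Poly(I:C). Hpgds and Ptges, which finish prostaglandins D2 and E2, were at 6.37 and 5.84 and at 7.34 and 7.92 CPM with vehicle and at 24.1 and 25.1 and 27.9 and 28.05 CPM with MSDC (2.01 and 1.87). Ltc4s, which makes leukotriene C4, rose by 1.57 (SE 0.08), while Alox5ap, which hands arachidonate to the first enzyme of that branch, fell by 0.61 (SE 0.07) on the log2 scale.

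Lists of stress and growth genes did not share 1 direction. Some were split, while the lysosome and apoptosis lists held more lower genes and the cell cycle list more higher genes. Over all tested genes 12.5% were higher and 13.6% lower. NRF2 targets, the antioxidant genes, had 7 of 20 higher and 7 lower, genes of the integrated stress response 5 of 18 higher and 5 lower, and genes of the unfolded protein response and heat shock 4 of 17 higher and 3 lower. Of 29 lysosome genes 4 were higher and 12 lower, of 20 apoptosis genes 2 were higher and 7 lower, and of 30 cell cycle genes 11 were higher and 3 lower. The 11 higher cell cycle genes came to 5, 7 and 6 without the first or second vehicle or the second MSDC library given Poly(I:C), and the 7 lower apoptosis genes to 4 without that MSDC library. The 7 higher NRF2 targets came to 4 without the first vehicle or the first MSDC library given Poly(I:C), the 7 lower ones to 4 without that group's second vehicle library, and the 5 higher stress response genes to 2 or 3 without any 1 of the 4. The 4 higher lysosome genes came to 1 without the first vehicle library given Poly(I:C). The D cyclins, which admit cells to the cycle, diverged: Ccnd1 was at 9.63 and 10.1 CPM with vehicle and 2.16 and 1.397 CPM with MSDC (log2 fold change -2.47, SE 0.23), and Ccnd2 at 265 and 289 CPM with vehicle and 496 and 521 CPM with MSDC (log2 fold change 0.88, SE 0.08). Bcl2l1, which protects from apoptosis, was at 192 and 197 CPM with vehicle and 97.8 and 99.5 CPM with MSDC (log2 fold change -0.98, SE 0.07).

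**Figure D4:**
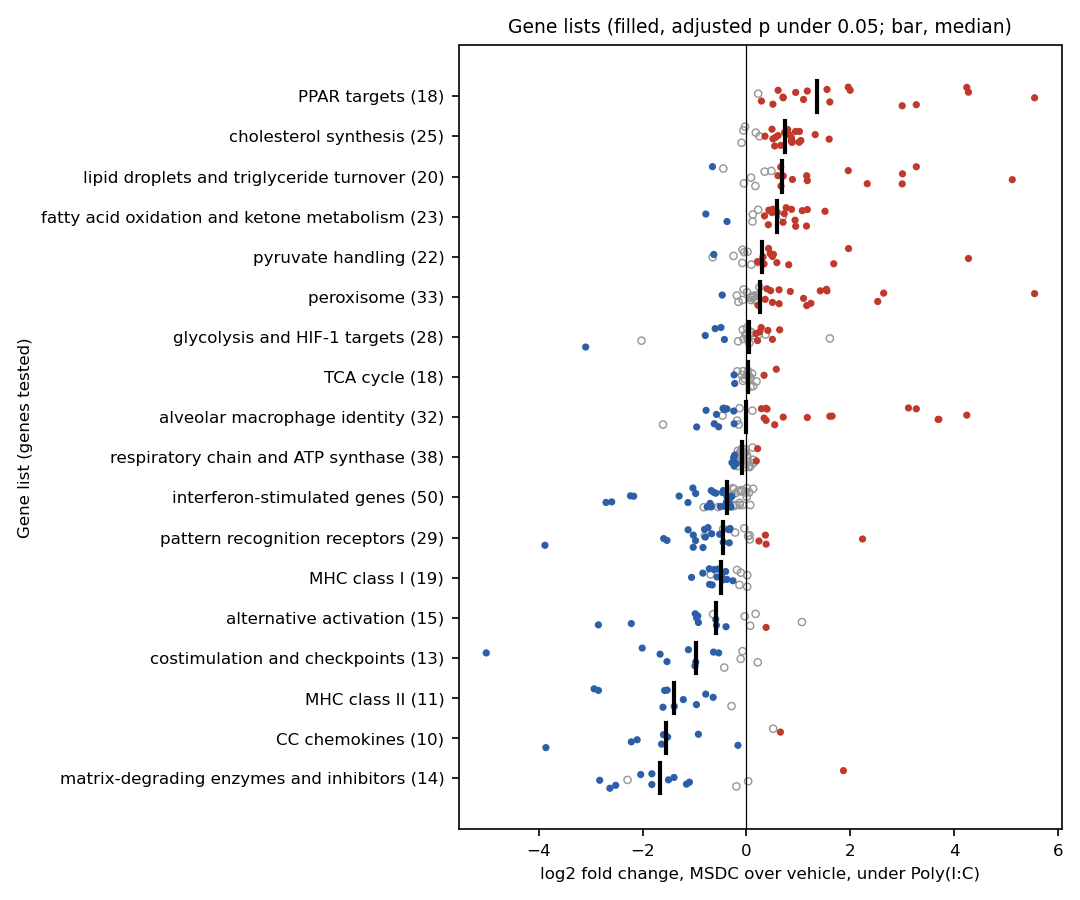
Log2 fold change (MSDC over vehicle, both with Poly(I:C)) of every tested member of 18 gene lists, ordered by list median. Each point is a gene, filled where it passed the test, and the black bar is the list's median, from 1.36 for PPAR targets to -1.66 for matrix enzymes.

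The same treatment was also compared in resting cells, in 4 libraries that share none with the stimulated comparison, though both were fitted in 1 model. There 1294 genes were higher and 1440 lower (11.1 and 12.4% of those tested). Of these, 1002 higher genes were higher in both, which is 69.1% of the stimulated and 77.4% of the resting list, and 1109 lower genes were lower in both, which is 69.9 and 77.0%. Genes called in opposite directions numbered 4: Ifi27 and Gm14308 rose under Poly(I:C) and fell at rest, and Selenow and Urm1 fell under Poly(I:C) and rose at rest. Gm14308 and Urm1 were chosen after their values were seen. DESeq2 did not call Gm14308 under Poly(I:C) (adjusted p = 0.38), and Urm1 did not pass there without the first vehicle or the first MSDC library given Poly(I:C) (edgeR adjusted p = 0.083 and 0.096). For the lipid genes both effects were close: Cd36 had log2 fold changes of 2.0 with and 2.03 without Poly(I:C), Plin2 1.96 and 2.14, Acaa1b 5.55 and 5.66, Mpc2 1.97 and 2.01, and C5ar1 6.74 and 6.38. The same held for H2-Aa (-1.57 and -1.67), Mmp12 (-2.63 and -2.89) and Fcgr2b (-3.23 and -3.06).

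The difference between the 2 effects was tested as an interaction in the same edgeR model, positive where the MSDC log2 fold change was the greater one under Poly(I:C). It was called for 26 genes (0.224% of those tested), 14 higher and 12 lower (0.12 and 0.103%), and 756 (6.51%) had an unadjusted p under 0.05. DESeq2 called 23 and 23. The counts depended on single libraries: with 1 library left out, 3 to 62 genes were higher and 2 to 39 lower. The higher counts came from leaving out either resting vehicle library, and the lowest from leaving out an MSDC library. Of the interferon-stimulated genes tested, 8 were called. Slfn5, an interferon-induced regulator of transcription, was at 21.7 and 7.86 CPM with vehicle and 1.205 and 2.095 CPM with MSDC at rest, and at 262 and 289 and then 228 and 240.0 CPM under Poly(I:C). Its log2 fold change was -3.15 at rest and -0.23 under Poly(I:C), a difference of 2.92 (SE 0.47, edgeR adjusted p = 0.013). Gbp7 went from 40.3 and 39.1 to 15.6 and 15.3 CPM at rest, and its difference was 1.03 (SE 0.10, edgeR adjusted p = 1.6e-04). The 2 resting vehicle libraries themselves differed in Slfn5, and the SE of its fold change was 0.40 at rest and 0.21 under Poly(I:C). They also differed in some other interferon-stimulated genes, such as Irf7 (15.5 and 6.24 CPM), but not in all, as the values of Gbp7 show. The chi-square per degree of freedom between replicate counts was 14.8 for the resting vehicle group and 4.29 to 6.36 for the other groups. The difference of Slfn5 was 2.01 without the first resting vehicle library, and it did not pass without the first resting MSDC library or either MSDC library given Poly(I:C), nor in limma on log2(FPKM + 1) (1.18, adjusted p = 0.46), whereas that of Gbp7 passed under every alternative run.

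Acod1 had the largest difference in the other direction among the genes named here. At rest it was at 5.03 and 5.32 CPM with vehicle and 4.37 and 3.89 CPM with MSDC, a log2 fold change of -0.33 that did not pass (edgeR adjusted p = 0.12), and the difference from the -1.86 seen under Poly(I:C) was -1.54 (SE 0.17, edgeR adjusted p = 6.2e-04). Sema4d, a semaphorin of immune cells, fell in both states and further under Poly(I:C), from 47.9 and 49.8 CPM to 12.6 and 9.36 CPM, a difference of -0.94 (SE 0.17, edgeR adjusted p = 0.042). That of Sema4d did not pass when scaled by library totals (adjusted p = 0.058), in limma (0.063), or in edgeR without 1 library other than a resting vehicle or the first MSDC library given Poly(I:C) (0.11 to 0.24). Cfb, complement factor B, rose at rest (0.80) and was at 1118 and 1048 CPM with vehicle and 1035 and 1051 CPM with MSDC under Poly(I:C) (-0.05), a difference of -0.85 (SE 0.08, edgeR adjusted p = 1.6e-04).

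**Figure D5:**
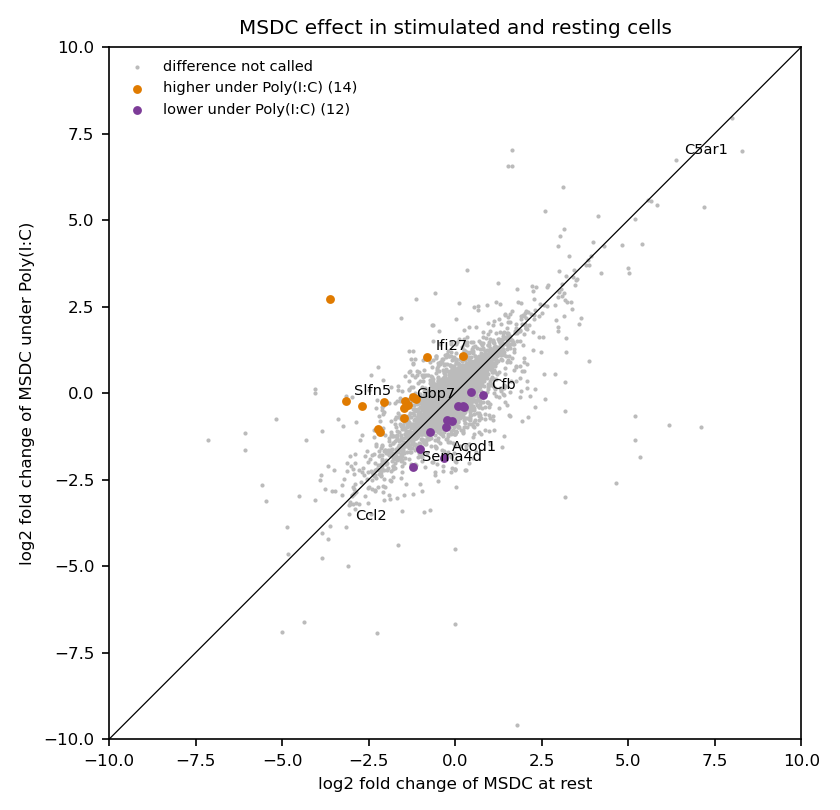
Log2 fold change of MSDC over vehicle under Poly(I:C) (vertical) against that at rest (horizontal), each point a tested gene. The 26 genes whose difference passed the test are coloured, orange for the 14 that lie above the diagonal and purple for the 12 that lie under it, and the line marks equal effects.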

How the data were processed

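Bulk RNA of 8 libraries of mouse alveolar macrophages was measured. The authors deposited 1 table with expected counts (per the file headers, read counts, of which 5.95 to 7.19% per library were not whole), FPKM and TPM for 15521 genes. Per the submitters' processing notes, TopHat2 2.1.1, Bowtie2 2.3.4, Cuffdiff and the build GRCm38 (mm10) were used, with roles not given there, and strandedness and handling of reads shared by copies are not given in the sources used here. Library totals were 28762425 to 29493223, which sets the limit that 3 counts allow at 0.102 to 0.104 CPM, counting error only. Date-like symbols (23) were restored through gene IDs, 99.3% of which matched RefSeq.

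The counts were rounded and tested with edgeR 4.0.16 (R 4.3.3) with filterByExpr, TMM factors (0.985 to 1.027) and a quasi-likelihood fit of 4 groups (4 residual degrees of freedom). The call was an adjusted p (Benjamini-Hochberg, over all 11621 tested genes) under 0.05. CPM were computed from the counts with TMM-scaled totals, and TPM, as deposited, serve for levels per length. Alternatives were DESeq2 1.42.0, limma 3.58.1 on log2(FPKM + 1), RLE factors or totals alone, no filter, a replicate block, the 4 stimulated libraries alone and each library left out. The alternatives for list counts and for differences between states were added after seeing the data. The fit was tested on simulated data with 200 changed genes. RefSeq promoters were searched over 250 bases.

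The gene lists and the members of the comparison were chosen with earlier results of these data known. Named genes are the 12 largest rises and falls without overlap at 5 CPM or more, members of short lists (up to 14 tested), the 6 smallest p and 3 most abundant uncalled members of longer lists, a fixed set of genes on the pyruvate carrier and inflammation, the 10 largest differences between states each way and the 10 most abundant genes. Acaa1a, C3ar1, Ifit1, Irf7, Rsad2, Tlr3, Tlr5, Gm14308 and Urm1 fall outside it and were chosen after their values were seen. Some named genes are not reported here.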

Additional observations from a re-analysis of the deposited data

Results flagged for a closer look

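For the 19 genes given here, with a level of at least 5 CPM, the effect of MSDC under Poly(I:C) differed from that at rest in the interaction test of edgeR (Benjamini-Hochberg adjusted p under 0.05). The 10 with a positive difference, in log2 units, were Slfn5 (2.92), Xaf1 (2.33), Ifi27 (1.87), Slfn8 (1.79), Oas1a (1.23), Ifi204 (1.19), Irf9 (1.1), Lgals9 (1.05), H2-T24 (1.04) and Gbp7 (1.03). Xaf1, an antagonist of apoptosis inhibitors, was at 5.23 and 2.77 CPM with vehicle and 0.551 and 0.676 CPM with MSDC at rest, and at 55.7 and 58.00 CPM with vehicle and 43.4 and 44.9 CPM with MSDC under Poly(I:C). Irf9, a subunit of the factor that interferon activates, went with MSDC from 35.4 and 25.2 CPM to 11.7 and 14.4 CPM at rest, and was at 102 and 107 CPM with vehicle and 99.8 and 94.9 CPM with MSDC under Poly(I:C). Ifi27 went with MSDC from 38.97 and 28.3 CPM to 17.7 and 20.4 CPM at rest, and from 20.6 and 16.5 CPM to 38.4 and 38.5 CPM under Poly(I:C), so the MSDC libraries were the lower ones at rest and the higher ones under Poly(I:C).

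The 9 with a negative difference were Acod1 (-1.54), Sema4d (-0.94), Cfb (-0.85), Clec4e (-0.72), Selenow (-0.66), Nt5c3 (-0.61), Ass1 (-0.58), Junb (-0.55) and H2-K1 (-0.44). Clec4e, a receptor of mycobacterial glycolipid, was at 47.9 and 40.7 CPM with vehicle and 41.96 and 41.2 CPM with MSDC at rest, and went from 71.5 and 59.7 CPM to 38.7 and 36.3 CPM under Poly(I:C). Ass1, which makes argininosuccinate on the way to arginine, went with MSDC from 244 and 262 CPM to 127 and 121 CPM at rest, and from 534 and 540.1 CPM to 179 and 173 CPM under Poly(I:C). Of the 19 differences, those of Acod1, Cfb, Gbp7, Ifi27 and Lgals9 passed under every alternative run, and the other 14 did not pass under at least 1. All 14 did not pass without the first resting MSDC library, and under the alternatives run 0 of the 19 changed sign.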

How the results depend on the processing

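For the comparison under Poly(I:C), the 1450 higher genes came to 1283 to 1643 and the 1586 lower ones to 1418 to 1687 under other tools, scalings, filters or libraries, and to 1027 to 1714 and 1126 to 1829 with 1 library left out. Of the 200 genes named, 175 kept direction and call under all alternatives run. The direction turned only in genes that had not passed, when 1 library given Poly(I:C) was left out: Cxcl10 ranged from -0.18 to 0.69, Ifit1 from -0.040 to 0.32, Rsad2 from -0.078 to 0.20, Rela from -0.032 to 0.13, Il1rn from -0.16 to 0.013 and Il1a from -0.032 to 0.065. The median over all genes moved between -0.0072 and 0.0067. limma on log2(FPKM + 1) gave smaller changes for low genes, such as 5.44 in place of 6.74 for C5ar1, as the added 1 does by construction. At rest, leaving out 1 library gave 819 to 1331 higher and 1016 to 1559 lower genes.

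The difference between stimulated and resting cells was the least stable result. In place of 14 higher and 12 lower genes, DESeq2 gave 23 and 23, no filter on low counts 64 and 52, limma 6 and 24, and scaling by library totals 4 lower. Leaving out 1 library gave 3 to 62 higher and 2 to 39 lower. The cause was not tested. Replicate numbers did not pair the libraries (correlations of deviations from -0.030 to 0.072). With the replicate number as a block, 1406 genes were higher and 1535 lower under Poly(I:C), and the block gave 16 and 8 for the difference. A group of 2 libraries limits what can be called: on simulated data at this depth the test under Poly(I:C) recovered 68.9% of 1.5-fold changes, 79.7% of 2-fold and 100% of 4-fold changes. The test of the difference recovered 44.3, 71 and 90% of them. Only 200 of 11621 genes were changed in that simulation, against 26.1% called in the data, so these shares may not carry over.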

Other observations

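The most abundant transcripts, by deposited TPM in the stimulated MSDC group, shifted by small amounts. Ftl1 and Fth1, the light and heavy chains of the iron store ferritin, went in opposite directions. Ftl1 had a mean of 30824 TPM with vehicle and 41732 TPM with MSDC (log2 fold change on counts 0.40, SE 0.06), and Fth1 29656 TPM and 25852 TPM (-0.23, SE 0.05). limma on log2(FPKM + 1) did not call Ftl1, Fth1 or Lyz2 (adjusted p = 0.056, 0.19 and 0.26). Lyz2, the lysozyme of macrophages, fell by 0.20 (SE 0.04), while Ctsd, a lysosomal protease, and Actb, actin, rose by 0.31 (SE 0.05) and 0.34 (SE 0.05) on the log2 scale. Ctsb, another lysosomal protease, and Eef1a1, a translation factor, did not pass (-0.08 and 0.08, edgeR adjusted p = 0.29 and 0.32).

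The Cyp4 family of fatty acid and eicosanoid hydroxylases, counting the pair of near copies described above, had 7 tested members. Of these, 4 were higher and 1 was lower with MSDC under Poly(I:C), and 3 were higher and 1 was lower at rest. At least 2-fold rises under Poly(I:C) were found for 2 of them.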
